A study of Mus musculus with 24 samples.

Results

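Mice given both doxorubicin and hesperitin were set against mice given vehicle, 16 h after treatment, over every gene in the deposited table. The comparison used 6 libraries of the 24 in the series: 3 of the combined treatment (DOXH) and 3 of vehicle (V), and 10393 genes were tested. All groups are hearts of wild-type (WT) mice. DOXH mice had doxorubicin at 25 mg/kg and hesperitin at 10 mg/kg per day. Hesperitin alone (H) and doxorubicin alone (DOX), each with 3 libraries at 16 h and the same doses, are given beside them where a value bears on DOXH. The labels give no strain background, age, sex, route or order of the compounds, and do not say how many animals stand behind a sample, and the p-values therefore reflect only sample-to-sample spread, which may be technical. The question put to the data was which part of the response all 3 DOXH hearts shared and which part they did not.

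Doxorubicin is an anthracycline used against cancer. It blocks type II topoisomerases and breaks DNA, and injury to the heart limits its use. DNA damage activates the transcription factor p53, which switches on genes of cell cycle arrest, repair and cell death. Interferon signalling switches on another set of genes through factors that bind the interferon-stimulated response element. The heart also has a circadian clock, in which CLOCK and its partner, encoded by Arntl, bind E-box motifs and drive the genes of their own repressors, among them Per1, Per2, Per3 and Ciart. Hesperitin, usually spelled hesperetin, is a flavanone of citrus fruit.

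The DOXH libraries held 9255651 to 10502391 counts and the V libraries 10337722 to 11074450. Mitochondrially encoded genes took 38.6% to 40.3% of counts in DOXH and 37.4% to 39.3% in V. Defining cardiomyocyte genes such as Myh6, Actc1 and Tnnt2 were abundant in all 12 libraries at 16 h. DOXH replicate 3 stood apart from the other DOXH libraries. Its standard deviation of log2 CPM (gene counts as a share of the library's total, scaled for library composition) around the V mean was 0.229 over all genes, inside the 0.196 to 0.235 that each V library showed against the other V libraries. The same value was 0.383 in replicate 1 and 0.579 in replicate 2. A V library was set against the mean of 2 libraries and a DOXH library against that of 3, which tends to raise the V values. The median over genes of the standard deviation within a group was 0.196 in DOXH and 0.102 in V. Nothing in the labels accounts for the difference. Whether this heart responded less, was dosed otherwise or carries the wrong label cannot be told apart here, so a difference shared by all 3 DOXH hearts means one shared by the 3 libraries with that label. Results below are given for the 3 libraries first and without replicate 3 beside them. Replicate 3 was singled out after its values were seen, because it lay nearest to V, so the calls and p-values without it are descriptions of replicates 1 and 2 and no independent support for a difference.

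No gene passed the test of DOXH against V. The edgeR quasi-likelihood test with Benjamini-Hochberg adjustment found 0 genes higher and 0 lower (percent of genes called 0% in each direction), with a smallest adjusted p of 0.101. At an unadjusted p under 0.05 there were 1749 genes (16.8%), 928 higher (8.93%) and 821 lower (7.9%). DESeq2 on the same counts found 85 higher (0.818%) and 46 lower (0.443%), limma voom found 0, and limma voom with a quality weight per library found 975 higher and 1143 lower. Without DOXH replicate 3, edgeR found 765 genes higher (7.36%) and 909 lower (8.75%). Without replicate 1 it found 1 gene, mt-Co2, and without replicate 2 it found 0. In the libraries of replicates 1 and 2 these 1674 genes differed from the V mean by a median of 0.49 and 0.71 on the log2 scale where higher, and by -0.49 and -0.74 where lower. In replicate 3 the same medians were 0.05 and -0.03. Of the 765 higher genes, replicate 3 lay above every V library in 301, within their range in 301 and below every V library in 163. Of the 909 lower genes, it lay below every V library in 349, within the range in 370 and above every V library in 190. Over all 10393 genes, replicate 3 lay above every V library in 2887 and below every V library in 2878.

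The size of the response was described per library by counting genes at least 2-fold from the V mean and outside the V range. DOXH replicate 2 had 349 such genes higher (3.36%) and 448 lower (4.31%). DOXH replicate 1 had 140 higher (1.35%) and 103 lower (0.991%). DOXH replicate 3 had 16 higher (0.154%) and 33 lower (0.318%). Each V library, set against the other V libraries, had 18 to 44 in both directions, each H library 86 to 113 and each DOX library 608 to 925. Replicate 2 thus lay in the range of the DOX libraries, replicate 3 near that of the V libraries, and replicate 1 between them. The V libraries had 2 reference libraries and the others 3, which tends to raise the V counts.

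**Figure D1:**
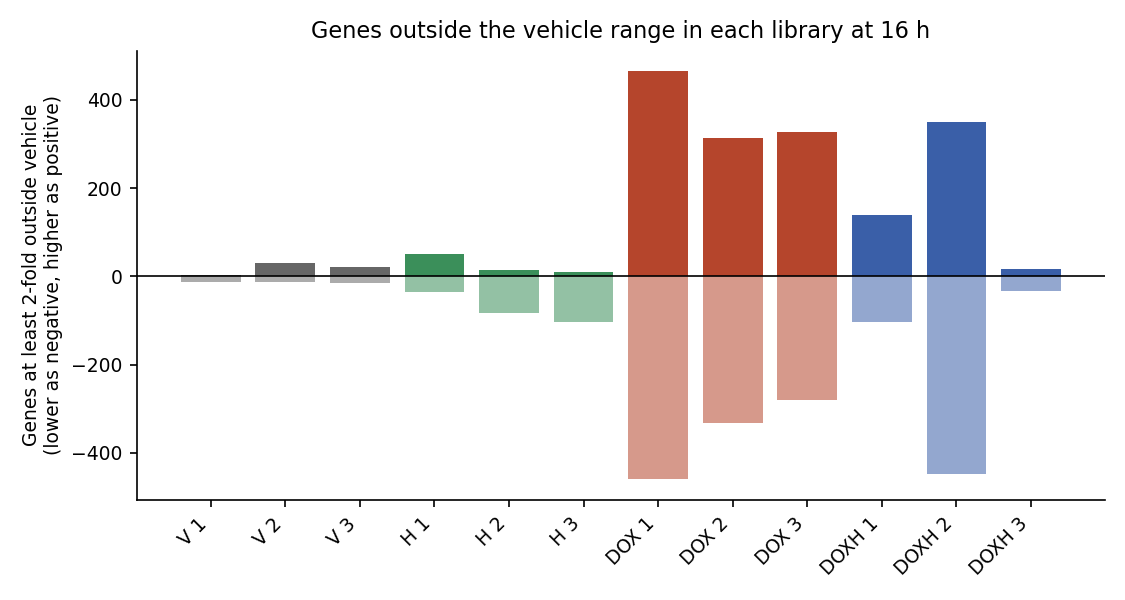
Number of genes at least 2-fold from the vehicle mean and outside the vehicle range in each of the 12 libraries at 16 h, higher genes above the zero line and lower genes below it; each vehicle library is counted against the other vehicle libraries. The 3 DOXH bars run from 49 genes in replicate 3 to 797 in replicate 2, and those of DOX from 608 to 925.

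Few of these genes were common to the 3 hearts. Of 393 genes higher in at least 1 DOXH library, 5 were higher in all 3 (0.0481% of genes), 96 in replicates 1 and 2 alone, 6 in replicates 2 and 3 alone and 0 in replicates 1 and 3 alone. Replicate 2 alone held 242 of the 393, replicate 1 alone 39 and replicate 3 alone 5. Of 501 genes lower in at least 1, 5 were lower in all 3 (0.0481%), 62 in replicates 1 and 2 alone, 8 in replicates 1 and 3 alone and 3 in replicates 2 and 3 alone. Replicate 2 alone held 378, replicate 1 alone 28 and replicate 3 alone 17. The 5 genes higher by this margin in all 3 were Arntl, Cldn5, Rasd1, Slfn4 and Tnfrsf19. The 5 lower were Ciart, Hspa1b, Sbk3, Slc25a29 and Tnfrsf12a. With no margin, every DOXH library lay above every V library in 977 genes (9.4%) and below every V library in 1023 (9.84%). Leaving out any DOXH or V library raised these counts, since fewer libraries then have to lie apart. Without DOXH replicate 1 they were 1327 and 1381, without replicate 2 1378 and 1382, and without replicate 3 2559 and 2644. With 1 V library left out they were 1372 to 1478 higher and 1320 to 1578 lower.

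Many genes of the circadian clock lay outside the V range, on the same side, in all 3 DOXH hearts. Of 20 clock genes tested, 0 passed edgeR, 9 were lower in every DOXH library than in every V library and 3 were higher, against 9.84% and 9.4% of all genes. The list's median log2 difference from the V mean was -0.33 in replicate 1, -0.70 in replicate 2 and -0.33 in replicate 3, beside 0.00 in each library over all genes. Ciart (chromosome 3, 95878503 to 95882251, GRCm38), which encodes a repressor of CLOCK and its partner, read 13.2, 13 and 13.2 CPM in V and 2.97, 1.82 and 5.60 CPM in DOXH. Every DOXH value was under the lowest V value, and replicate 3 was the nearest to V. The log2 fold change was -1.92 ± 0.28 (SE; edgeR adjusted p = 0.101), and -2.44 ± 0.22 without replicate 3 (edgeR adjusted p = 0.000106). DESeq2 gave an adjusted p of 1.2e-07 on all 3.

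Per2 (chromosome 1, 91415982 to 91459324), the gene of a period protein that represses the same pair, read 31.7, 33.3 and 34.1 CPM in V and 19.1, 15.0 and 17.0 CPM in DOXH. Here replicate 3 lay between the other DOXH libraries. The log2 fold change was -0.95 ± 0.15 (edgeR adjusted p = 0.101). Arntl (chromosome 7, 113207465 to 113314126), the gene of the activator itself, went the opposite way: 4.34, 2.27 and 3.14 CPM in V against 6.98, 14.2 and 9.13 CPM in DOXH. Its log2 fold change was 1.64 ± 0.28 (edgeR adjusted p = 0.173; DESeq2 adjusted p = 8.9e-05). Clock, which encodes the activator's partner, was also higher in all 3, at 48.5 ± 1.35 CPM in V and 65.9 ± 11.4 CPM in DOXH (mean ± SD, n = 3). Dbp, a clock output factor, read 77.1, 85.2 and 75.0 CPM in V and 24.8, 4.18 and 50.7 in DOXH, so that its values in DOXH spread over more than those of the other clock genes named here. The other members below V in every DOXH library were Per3, Tef, Hlf, Bhlhe40, Bhlhe41 and Tspan4, and the third above it was Per1. Nr1d1, the gene of the repressor REV-ERB alpha, overlapped V through replicate 3: 85.3, 85.6 and 75.2 CPM in V against 50.9, 25.2 and 80.5 in DOXH.

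The E-box letters CACGTG, which read the same on both strands, were searched in the RefSeq promoter windows of GRCm38.p6, from 250 bases before to 50 bases after a gene's start. Of 8281 tested genes with a window, 1005 held them (12.1%), beside 11.5% of the genes above V in every DOXH library and 12.7% of those below. In the clock list 6 of 17 genes with a window held them, and 5 of the 10 among its members without overlap: Bhlhe41, Ciart, Per1, Tef and Tspan4. A match is a description of the letters only. The stretches before the starts of Ciart (minus strand, chr3:95882252-95882478) and Bhlhe41 (minus strand, chr6:145865559-145865670), both lower in all 3 DOXH libraries, are shown 5′ to 3′, ending at the edge of the annotated gene, with each CACGTG in capitals.
Ciart: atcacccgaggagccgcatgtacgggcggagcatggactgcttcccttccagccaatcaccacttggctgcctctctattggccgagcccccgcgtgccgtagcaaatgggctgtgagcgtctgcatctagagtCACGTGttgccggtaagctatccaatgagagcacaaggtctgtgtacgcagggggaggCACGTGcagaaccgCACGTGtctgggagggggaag
Bhlhe41: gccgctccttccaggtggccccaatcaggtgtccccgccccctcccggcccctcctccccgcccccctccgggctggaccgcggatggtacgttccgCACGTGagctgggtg
In Ciart the 3 matches begin 116, 58 and 44 bases before the RefSeq start, and in Bhlhe41 the single match begins 153 bases before it. Bhlhe41, a further repressor of the clock, read 22.7, 26.2 and 22.2 CPM in V and 15.0, 8.89 and 16.1 in DOXH (log2 fold change -0.83 ± 0.26, edgeR adjusted p = 0.21).

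Outside the clock, Cldn5 (chromosome 16, 18776847 to 18778262), which encodes the tight-junction protein claudin 5 of endothelium, was with Ciart, mt-Co2 and Per2 one of the 4 genes of smallest p. It read 10.8, 8.61 and 11.5 CPM in V and 58.7, 91.5 and 23.3 CPM in DOXH, with the log2 fold change at 2.49 ± 0.38 (edgeR adjusted p = 0.101) and at 2.87 ± 0.19 without replicate 3 (edgeR adjusted p = 2.14e-05). All DOXH values exceeded all V values, and that of replicate 3 was the lowest of the 3. Endothelial markers as a list did not rise with it. Of 23 tested, Cldn5 alone was above V in every DOXH library and 4 were below, against 9.4% and 9.84% of all genes. The summed level of these markers was 1783 to 2197 CPM in DOXH and 1862 to 1977 in V.

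Slc25a29 and Tnfrsf12a were lower by nearly the same amount in all 3 DOXH hearts. Slc25a29 (chromosome 12, 108825873 to 108835883), a mitochondrial carrier of basic amino acids, read 5.79, 5.89 and 5.76 CPM in V and 2.58, 2.68 and 2.80 in DOXH (log2 fold change -1.11 ± 0.19, edgeR adjusted p = 0.173; DESeq2 adjusted p = 0.00679). Tnfrsf12a (chromosome 17, 23675445 to 23677468), the receptor of the cytokine TWEAK, read 29.4, 25.8 and 30.3 CPM in V and 8.42, 8.68 and 10.7 in DOXH (log2 fold change -1.62 ± 0.40, edgeR adjusted p = 0.2). It passed edgeR in a fit of the 6 libraries of DOXH and V alone and in a fit without H replicate 1, in which Per2 passed too. H replicate 1 read 59.9 CPM of Tnfrsf12a and the other H libraries 20.2 and 21.6.

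mt-Co2 (mitochondrial genome, 7013 to 7696), a subunit of cytochrome c oxidase, read 1071, 1431 and 1285 CPM in V and 727, 439 and 566 in DOXH. Its log2 fold change was -1.13 ± 0.17 (edgeR adjusted p = 0.101). The H libraries were as low, at 527, 673 and 605 CPM. Nuclear genomes hold near-identical copies of mitochondrial genes, so the counting of mt-Co2 is uncertain. Most of the other mitochondrially encoded mRNAs did not follow. Of 13 tested, mt-Co2 and mt-Atp6 were below V in every DOXH library and 0 were above, against 9.84% and 9.4% of all genes. The list's median log2 fold change was 0.02.

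Of the 10 genes 3 more were higher, at low levels. Slfn4, a schlafen gene of myeloid cells, read 1.45, 0.63 and 2.83 CPM in V and 16.9, 15.0 and 3.84 in DOXH. Rasd1, a small G protein induced by dexamethasone, read 3.76, 1.99 and 4.40 CPM in V and 10.6, 21.0 and 7.99 in DOXH. Tnfrsf19 read 1.83, 1.63 and 2.72 CPM in V and 4.78, 8.57 and 4.98 in DOXH. For Slfn4 the third library lay close to the highest V value, and for Tnfrsf19 it matched the first. Sbk3 was lower, at 11.7, 5.53 and 4.92 CPM in V and 1.63, 1.82 and 3.11 in DOXH. The adjusted p of these 4 was 0.2 in edgeR.

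**Figure D2:**
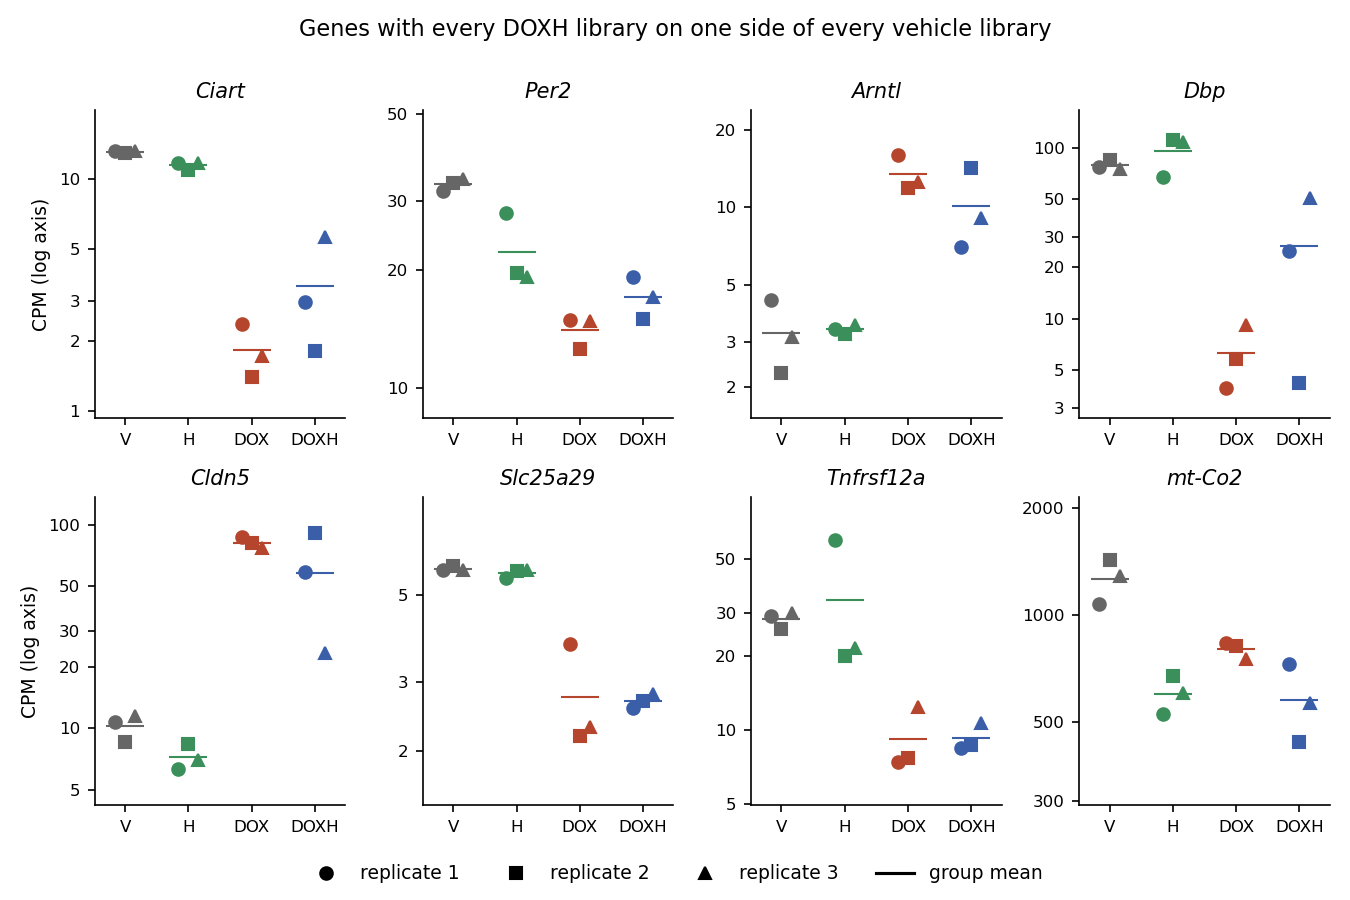
CPM on a log axis of 8 genes in every library at 16 h, by group, with the replicate as the symbol and the group mean as a line. All DOXH points lie on one side of all vehicle points in each panel, and replicate 3 (triangle) lies nearest to vehicle for Ciart, Dbp, Cldn5, Slc25a29 and Tnfrsf12a but not for Per2, Arntl or mt-Co2.

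Heat shock genes encode chaperones. Of 29 tested, 0 passed edgeR, 14 were below V in every DOXH library and 0 were above, against 9.84% and 9.4% of all genes, and the median log2 fold change was -0.21. In replicate 3 alone 17 were below V and 4 above, beside 2878 below and 2887 above of all 10393 genes. Hspa1b, an inducible HSP70, read 7.62, 6.53 and 6.07 CPM in V and 2.97, 3.11 and 2.80 in DOXH (log2 fold change -1.19 ± 0.32, edgeR adjusted p = 0.2). Its neighbour Hspa1a, nearly identical in sequence so that reads may be divided between them, read 8.2, 7.98 and 8.17 CPM in V and 3.63, 4.18 and 3.11 in DOXH. In both genes the 3 DOXH libraries lay within a narrow band. Hspb7, a small heat shock protein of muscle, read 1773, 1712 and 1715 CPM in V and 765, 671 and 1321 in DOXH (log2 fold change -0.92 ± 0.20, edgeR adjusted p = 0.2; DESeq2 adjusted p = 0.00675).

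Part of the genes of the contractile apparatus and of cardiac stress were below V in every DOXH library, where 9.84% of all genes were below and 9.4% above. Of 31 sarcomere genes, 13 were below V in all 3 libraries and 0 above, and the medians of the log2 difference from V were -0.31, -0.66 and -0.13 in replicates 1, 2 and 3. Of 17 cardiac stress genes, 10 were below and 0 above, with medians of -0.35, -0.86 and -0.27. Neither list had a member past edgeR, and without replicate 3 the counts that fell were 13 and 5 (8.75% of all genes). Actc1, cardiac actin, read 5985, 5433 and 6480 CPM in V and 3292, 2739 and 5057 in DOXH (log2 fold change -0.69 ± 0.18, edgeR adjusted p = 0.2; DESeq2 adjusted p = 0.0342). Tcap, the titin cap of the Z-disc, read 1100, 1082 and 1016 CPM in V and 580, 326 and 896 in DOXH. Nppb, the gene of the natriuretic peptide BNP, read 97.6, 82.5 and 122 CPM in V and 10.0, 0.96 and 58.3 in DOXH (log2 fold change -2.12 ± 0.85, edgeR adjusted p = 0.265), and without replicate 3 it fell by 4.15 (edgeR adjusted p = 0.00854). In each of these 3 genes replicate 3 was below V, yet nearer to V than to replicate 2. Ankrd1 read 933, 862 and 901 CPM in V and 641, 95.4 and 629 in DOXH, so that replicate 2 alone was more than 2-fold lower. Cardiomyocyte markers, many of them sarcomere genes, summed to 66423 to 74896 CPM in V and 50706, 46464 and 68735 CPM in DOXH replicates 1 to 3, and 8 of 17 were below V in every library. In bulk tissue fewer cells of a type and less RNA per cell cannot be told apart.

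In the glucocorticoid and fasting list 10 of 29 genes were above V in every DOXH library and 0 below (9.4% and 9.84% of all genes), among them Cdkn1a, Ddit4, Dusp1, Fbxo32, Irs2, Per1, Sgk1 and Tsc22d3. Some of them, such as Cdkn1a and Ddit4, are also p53 targets. Irs2, an adaptor of insulin signalling, read 17.1, 9.43 and 13.9 CPM in V and 49.2, 36.4 and 22.2 in DOXH (log2 fold change 1.42 ± 0.35, edgeR adjusted p = 0.2; DESeq2 adjusted p = 0.0105). Tsc22d3, the gene of the glucocorticoid-induced leucine zipper, was higher by less, at 110, 119 and 123 CPM in V and 148, 134 and 145 in DOXH. Fkbp5, a chaperone gene used as a marker of glucocorticoid action, overlapped V: it read 43.2, 43.7 and 47.8 CPM in V and 26.7, 107 and 41.7 in DOXH. Of 20 immediate early genes 7 were above V in every DOXH library and 2 below, beside the same 9.4% and 9.84%. Nr4a1, an orphan nuclear receptor, read 37.4, 20.5 and 21.7 CPM in V and 94.6, 46.3 and 37.9 in DOXH, where replicate 3 stood just above the highest V library.

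The p53 targets were higher in DOXH replicates 1 and 2 and, for the most part, not in replicate 3. The list's median log2 difference from V was 0.88 in replicate 1, 1.49 in replicate 2 and 0.02 in replicate 3. Of 30 tested, 0 passed edgeR and 8 were above V in all 3 libraries (9.4% of all genes). Replicate 3 alone was above V in 9 and below it in 9, near its share of all 10393 genes (2887 above and 2878 below). Without replicate 3, 23 of the 30 rose and 1 fell, against 7.36% and 8.75% of all genes. By the 2-fold count, 13 of the 30 were higher in replicates 1 and 2 alone, 5 in replicate 2 alone and 0 in replicate 3. Aen, a p53-induced nuclease, read 30.2, 31.4 and 28.8 CPM in V and 106, 128 and 25.8 in DOXH. Replicates 1 and 2 were far above V, and replicate 3 was below every V library. Its log2 fold change was 1.52 ± 0.41 (edgeR adjusted p = 0.2), and 1.96 ± 0.13 without replicate 3 (edgeR adjusted p = 1.65e-05).

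Mdm2 (chromosome 10, 117688875 to 117710758), which encodes the ligase that degrades p53, read 44.0, 45.9 and 43.9 CPM in V and 89.0, 138 and 44.9 in DOXH, with replicate 3 inside the V range. Bax, which permeabilises mitochondria in cell death, read 8.29, 11.2 and 9.74 CPM in V and 23.7, 34.1 and 8.40 in DOXH. Phlda3, an inhibitor of AKT, read 4.24, 6.26 and 4.19 CPM in V and 25.4, 34.4 and 3.94 in DOXH. Bax in replicate 3 was within the V range and Phlda3 was just below it. A few p53 targets kept a small difference in replicate 3. Eda2r (chromosome X, 97333840 to 97377216), a receptor that binds the ligand EDA-A2, read 3.57, 2.81 and 2.30 CPM in V and 45.3, 85.2 and 3.63 in DOXH, so that replicate 3 was just above the highest V library. Cdkn1a, the gene of the cell cycle inhibitor p21, read 36.5, 26.9 and 42.5 CPM in V and 151, 327 and 53.2 in DOXH. Klhdc7a, which is on none of the lists, showed the same order at 4.72, 5.62 and 5.23 CPM in V and 65.4, 91.7 and 6.95 in DOXH. A count of libraries without overlap therefore held genes, such as Eda2r, for which replicate 3 was at the level of vehicle.

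Interferon-stimulated genes were also at the level of V or below it in replicate 3 for the most part. Their median log2 difference from V was 0.99 in replicate 1, 0.84 in replicate 2 and -0.12 in replicate 3. Of 32 tested, 0 passed edgeR and 3 were above V in every DOXH library (Ddx58, Ifi204 and Rtp4), which is the share of all genes (9.4%). Replicate 3 was above V in 3 and below it in 13, where over all 10393 genes it was above in 2887 and below in 2878. Without replicate 3, 23 rose and 0 fell, against 7.36% and 8.75% of all genes. By the 2-fold count 10 were higher in replicates 1 and 2 alone, 5 in replicate 1 alone, and 0 in replicate 3. Oasl2, an antiviral protein of the oligoadenylate synthetase family, read 5.30, 7.80 and 7.12 CPM in V and 23.7, 22.9 and 5.60 in DOXH (log2 fold change 1.37 ± 0.40, edgeR adjusted p = 0.201; 1.79 ± 0.14 without replicate 3, edgeR adjusted p = 5.53e-05). Irf7, the factor that amplifies the interferon response, read 5.69, 8.07 and 6.18 CPM in V and 20.1, 20.4 and 4.67 in DOXH. In both genes replicates 1 and 2 were nearly equal.

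The core of the interferon-stimulated response element, searched on both strands, was in the promoter windows of 305 of the 8281 genes (3.68%) and of 11 of 23 interferon-stimulated genes with a window (47.8%). It was in 4.04% of the genes above V in every DOXH library and 2.43% of those below. The sequences before the starts of Ifit1 (plus strand, chr19:34640639-34640870) and Ifit3 (plus strand, chr19:34583279-34583528), genes of interferon-induced RNA-binding proteins that were above V in DOXH replicates 1 and 2 and not in replicate 3, are shown 5′ to 3′ with the matches in capitals. They read as the reverse complement of the core, and the genes were chosen for display as members that hold it before the start.
Ifit1: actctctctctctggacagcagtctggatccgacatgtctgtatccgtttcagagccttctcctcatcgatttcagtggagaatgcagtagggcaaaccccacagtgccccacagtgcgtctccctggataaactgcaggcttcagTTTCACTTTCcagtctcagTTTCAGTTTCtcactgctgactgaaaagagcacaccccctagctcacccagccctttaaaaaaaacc
Ifit3: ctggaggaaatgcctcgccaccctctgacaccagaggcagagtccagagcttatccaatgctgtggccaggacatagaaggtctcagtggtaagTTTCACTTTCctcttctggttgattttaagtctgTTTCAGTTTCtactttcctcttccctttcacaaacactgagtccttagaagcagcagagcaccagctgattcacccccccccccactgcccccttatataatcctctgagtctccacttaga
The matches begin 104 and 85 bases before the RefSeq start in Ifit1 and 156 and 122 bases before it in Ifit3. Ifit1 read 4.24, 5.80 and 6.07 CPM in V and 17.2, 16.5 and 3.42 in DOXH. Ifit3, whose reads may be shared with its copy Ifit3b, read 4.72, 8.61 and 7.22 CPM in V and 17.2, 18.4 and 5.71 in DOXH. The third DOXH library was below every V library for Ifit1 and inside the V range for Ifit3.

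**Figure D3:**
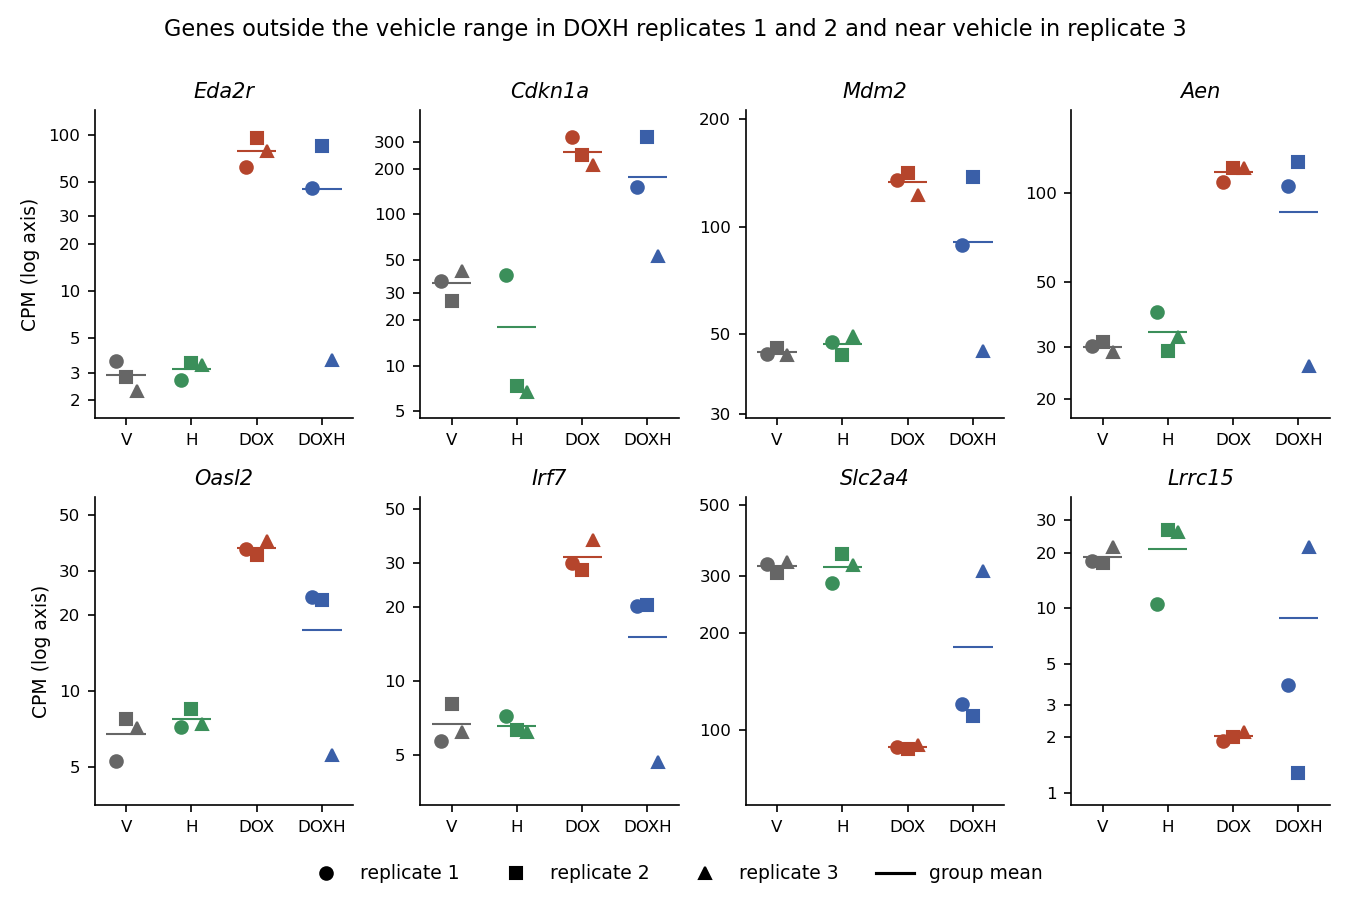
CPM on a log axis of 8 genes in every library at 16 h, by group, with the replicate as the symbol and the group mean as a line. DOXH replicates 1 and 2 (circle, square) lie with or toward the DOX points, and replicate 3 (triangle) lies at or near the vehicle points, as for Mdm2 at 89.0, 138 and 44.9 CPM. For Cdkn1a and Eda2r replicate 3 lies above every vehicle point, and for Aen and Irf7 below every one.

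Several genes of cardiac function were below V in replicates 1 and 2 and not in replicate 3. Slc2a4, the insulin-regulated glucose transporter GLUT4, read 328, 306 and 333 CPM in V and 120, 110 and 312 in DOXH. Its log2 fold change was -0.83 ± 0.31 (edgeR adjusted p = 0.248) and -1.48 ± 0.10 without replicate 3 (edgeR adjusted p = 1.65e-05). Among 28 cardiac ion channel genes 2 were below V in every DOXH library and 1 above, no more than the 9.84% and 9.4% of all genes. Without replicate 3, 8 fell (8.75% of all genes), and the list's medians were -0.47, -0.78 and 0.03 in the 3 libraries. Kcnj11, a subunit of the ATP-sensitive potassium channel, read 114, 107 and 110 CPM in V and 46.8, 44.1 and 112 in DOXH. Kcnd2, a subunit of the transient outward potassium channel, read 27.9, 28.1 and 26.2 CPM in V and 13.6, 7.39 and 55 in DOXH. Kcnd2 in replicate 3 was thus above all V libraries while the other DOXH libraries were below them. Among 27 calcium handling genes 6 were below V in all 3 and 0 above, beside 9.84% and 9.4% of all genes, 13 fell without replicate 3, and the medians were -0.36, -0.54 and 0.00. Cacnb2, an auxiliary subunit of the L-type calcium channel, was among those below in all 3, at 81.7, 86.6 and 83.6 CPM in V and 34.0, 30.4 and 67.5 in DOXH. Myh6, the fast cardiac myosin, read 20479, 16383 and 19253 CPM in V and 9041, 8886 and 20237 in DOXH, with replicate 3 inside the V range.

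Smaller sets of genes were shared by other pairs of DOXH libraries, and were picked out after their values were seen. Replicates 2 and 3, but not replicate 1, were at least 2-fold above V for Angptl4, Asb4, Cers6, Pdk4, Ubxn10 and Ucp3. Pdk4, the kinase that shuts pyruvate out of oxidation, read 331, 185 and 863 CPM in V and 578, 1966 and 1076 in DOXH. Ucp3, a mitochondrial uncoupling protein, read 26.8, 23.9 and 59.7 CPM in V and 37.0, 67.9 and 79.8 in DOXH. Angptl4, an inhibitor of lipoprotein lipase, read 3.47, 2.81 and 7.01 CPM in V and 3.06, 11.2 and 11.2 in DOXH. In these 3 genes V replicate 3 was the highest V library and lay above DOXH replicate 1, and the smallest edgeR adjusted p, that of Pdk4, was 0.32. Cers6, a ceramide synthase, and Asb4 were above every V library in DOXH replicate 1 as well, short of the margin, at 5.93 and 6.03 CPM. Their edgeR adjusted p was 0.2 and 0.201, and that of Ubxn10 was 0.206. The fatty acid list as a whole had 4 of 35 genes above V in every DOXH library and 2 below, near the 9.4% and 9.84% of all genes. DOXH replicate 3 was above V in 23 of the 35 and below it in 4, where over all 10393 genes it was above in 2887 and below in 2878.

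Some interferon-induced genes passed the 2-fold margin in DOXH replicate 1 alone. The genes at least 2-fold above V in that library and in no other included the interferon-induced GTPases Gbp3, Gbp4, Gbp7, Tgtp1 and Tgtp2, the class I regulator Nlrc5, and Herc6, Ifit3b, Stat2, Trim30a and Xaf1. Gbp4 read 15.2, 16.3 and 11.3 CPM in V and 28.7, 7.71 and 11.3 in DOXH, with replicate 2 below every V library. Nlrc5 read 5.01, 7.16 and 4.40 CPM in V and 12, 6.43 and 2.80 in DOXH. The DOX libraries were divided too, since Gbp4 read 10.8, 42.9 and 60.5 CPM there. Over 18 GTPase and schlafen genes the medians were 0.99, 0.43 and -0.12, and over 18 genes of class I presentation 0.45, -0.07 and -0.15. For Herc6, Ifit3b, Stat2, Trim30a and Xaf1 the margin set this division, since replicate 2 was 0.708 to 0.996 above the V mean on the log2 scale. Herc6 read 5.79, 6.16 and 4.82 CPM in V and 13.6, 11.2 and 5.71 in DOXH. The 5 GTPase genes were -0.859 to 0.399 from the V mean in replicate 2.

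DOXH replicate 3 alone was at least 2-fold lower for 17 genes. They included the stress hormone gene Nppa, at 125, 75.6 and 107 CPM in V and 80.7, 109 and 30.5 in DOXH, the transcription factor genes Irx1, Irx2 and Irx5, and Socs3, a feedback inhibitor of cytokine signalling. For Irx5 the margin set this division. It read 5.88, 5.44 and 7.22 CPM in V and 4.40, 3.43 and 2.80 in DOXH, below V in all 3. Socs3 read 5.50, 8.43 and 15.4 CPM in V and 9.76, 29.3 and 2.90 in DOXH, so that replicates 2 and 3 lay on opposite sides of V. Among its 5 higher genes was Aqp4, a water channel, at 4.72, 4.53 and 4.92 CPM in V and 2.01, 3.75 and 16.1 in DOXH. The 6 atrial markers tested, which could track how much atrium a sample held, summed to 677 to 709 CPM in V and to 671, 759 and 589 CPM in DOXH. Of them Myl4 read 1.64, 19.1 and 4.71 CPM in V and 1.24, 31.4 and 3.22 in DOXH, and their part in the results was not tested.

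**Figure D4:**
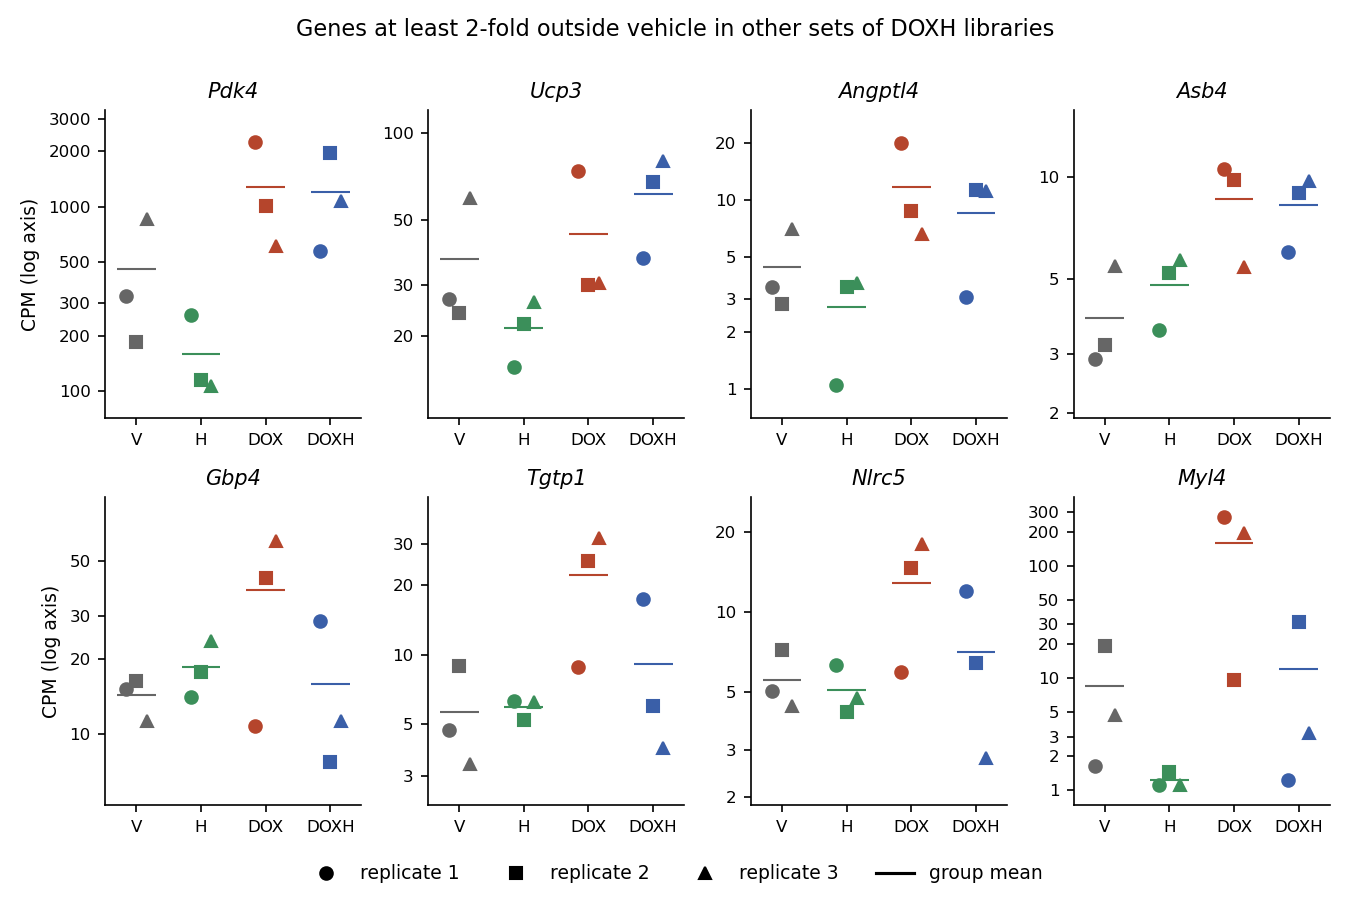
CPM on a log axis of 8 genes in every library at 16 h, by group, with the replicate as the symbol and the group mean as a line. Pdk4, Ucp3, Angptl4 and Asb4 are high in DOXH replicates 2 and 3, Gbp4, Tgtp1 and Nlrc5 in replicate 1, and Myl4, an atrial gene, in replicate 2.

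The genes with the widest deviation of a single DOXH library, among those with another DOXH library inside the V range, were mostly set by replicate 2. On the higher side these were Galnt2l, Hmox1, Il1r2, Mmp3, Mmp8, Sec14l5, Serpina3n and Sesn2. Serpina3n, an acute-phase protease inhibitor, read 5.4, 14.9 and 8.69 CPM in V and 11.3, 77.3 and 7.68 in DOXH. Hmox1, heme oxygenase, read 6.46, 9.07 and 10.2 CPM in V and 7.84, 53.3 and 5.91 in DOXH. Serpina3n was within the V range in replicates 1 and 3, and Hmox1 was within it in replicate 1 and below it in replicate 3. On the lower side they were Alb, B3galt2, Car3, Cyp2e1, Itgb6, Lrrc15, Myh7b and Prr33. Lrrc15 read 18.0, 17.5 and 21.6 CPM in V and 3.83, 1.29 and 21.4 in DOXH. Itgb6, an integrin subunit, read 9.35, 12.3 and 10.7 CPM in V and 11.7, 1.39 and 15.5 in DOXH. Alb, the liver's albumin gene, varied within V as well, at 16.2, 18.3 and 5.97 CPM, and read 1.34, 46.7 and 6.22 in DOXH.

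The antioxidant list also turned on replicate 2. Of 37 NRF2, glutathione and metallothionein genes, 3 were above V in every DOXH library and 2 below, no more than the 9.4% and 9.84% of all genes. The medians were 0.10, 0.37 and -0.06, and 7 rose and 1 fell without replicate 3, against 7.36% and 8.75% of all genes. Gclm, a subunit of the enzyme that begins glutathione synthesis, read 19.0, 18.0 and 17.4 CPM in V and 36.5, 70.8 and 17.2 in DOXH. Srxn1, sulfiredoxin, read 16.1, 17.3 and 13 CPM in V and 25.8, 93.6 and 11.3 in DOXH. The metallothionein gene Mt2 read 20.6, 20.7 and 29.2 CPM in V and 14.3, 123 and 17.4 in DOXH, and so was higher in replicate 2 and lower in the others.

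**Figure D5:**
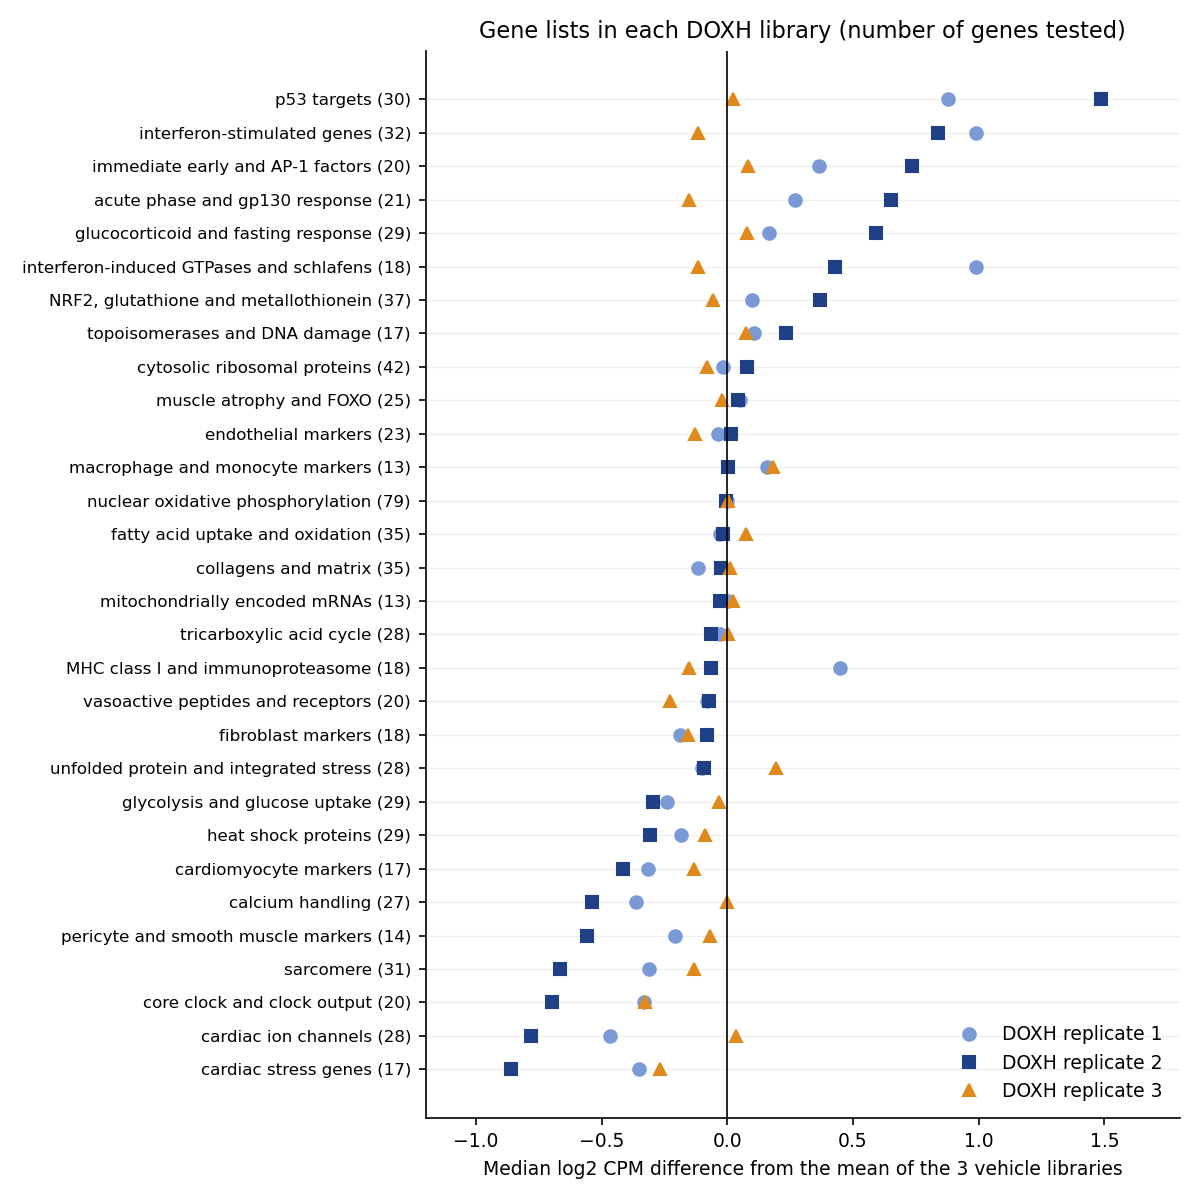
Median over the genes of each list of the log2 CPM difference from the vehicle mean, in each DOXH library; lists of at least 10 tested genes, ordered by replicate 2, with the number tested in brackets. Replicate 3 (triangle) lies near 0 for p53 targets (0.02) and ion channels (0.03), and at -0.33 with replicate 1 for the clock list.

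The genes at least 2-fold from V in all 3 DOXH libraries are set beside the other treatments here. Arntl, Cldn5, Rasd1, Slfn4 and Tnfrsf19 were also called higher in DOX against V (edgeR adjusted p = 0.00211 to 0.00793; 15.6% of all genes). Ciart, Sbk3, Slc25a29 and Tnfrsf12a were called lower there (edgeR adjusted p = 0.00211 to 0.0113; 16.6% of all genes). Hspa1b did not pass in DOX against V (edgeR adjusted p = 0.227), and edgeR called 0 genes in H against V. The 3 comparisons use the same V libraries, so their values are only set side by side. Ciart read 2.37, 1.40 and 1.73 CPM in DOX and 11.7, 10.9 and 11.7 in H. Slc25a29 read 3.74, 2.19 and 2.30 CPM in DOX and 5.52, 5.75 and 5.78 in H. Hspa1b was low in H, at 4.36, 2.48 and 1.55 CPM, and read 4.74, 3.59 and 6.08 in DOX. Against V, the log2 fold changes of Per2 were -1.23 in DOX, -0.57 in H and -0.95 in DOXH. In DOX against V, 22 of the 30 p53 targets and 28 of the 32 interferon-stimulated genes rose (15.6% of all genes), with medians of 1.38 and 1.42, and 11 of the 20 clock genes fell (16.6% of all genes). DOXH against DOX was tested directly, and edgeR called 0 genes (0%; 1958 at an unadjusted p under 0.05, 18.8%), with DESeq2 at 390 and limma voom with quality weights at 1329. Without DOXH replicate 2 edgeR called 1554, and without replicate 3 it called 0. The list medians of DOXH over DOX were -0.46 for p53 targets, -0.77 for interferon-stimulated genes, 0.39 for the sarcomere and 0.12 for the clock. For Ciart the adjusted p of DOXH against DOX in edgeR was 0.188 and for Per2 it was 0.346.

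Other lists had medians near that of V. Of 79 nuclear oxidative phosphorylation genes 5 were above V in every DOXH library and 7 below, no more than the 9.4% and 9.84% of all genes. Their median log2 fold change was 0.00. In DOX against V 44 of them fell, against 16.6% of all genes. Of 42 cytosolic ribosomal protein genes 0 were above and 2 below, under the same 9.4% and 9.84%, but replicate 3 was below V in 21 (2878 of all 10393 genes). Their summed level was 7716 to 8383 CPM in V and 7889, 8429 and 7574 in DOXH. The series title names CISD2. Its family, iron-sulfur proteins of mitochondria and the endoplasmic reticulum, summed to 201 to 218 CPM in V and to 190, 186 and 211 in DOXH. In replicates 1 and 2 each of the 3 genes was below every V library, as were 2644 of all 10393 genes. None passed edgeR in DOXH against V (0), with or without replicate 3. In DOX against V all 3 fell (16.6% of all genes), with a median log2 fold change of -0.29. Cisd1 read 112, 108 and 108 CPM in V and 103, 99.7 and 106 in DOXH, a small difference in the same direction in all 3 (log2 fold change -0.09 ± 0.07, edgeR adjusted p = 0.538). Cisd2 read 71.4, 65.3 and 67.7 CPM in V and 59.9, 64.7 and 73.7 in DOXH, with replicates 1 and 3 on opposite sides of V. Cisd3 read 34.4, 27.8 and 29.5 CPM in V and 26.8, 21.6 and 30.8 in DOXH.

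Markers of other cells moved with some of these results. The 9 neutrophil genes tested summed to 41.2, 27.2 and 84.6 CPM in V and to 166, 170 and 66.8 CPM in DOXH. Replicate 3 was thus inside the V range. The H libraries ran from 13.2 to 175 CPM, so that the highest H library was above every DOXH library. None of the neutrophil genes was without overlap between DOXH and V (0), and 0 passed edgeR without replicate 3. No tested neutrophil gene stood at 0 in any DOXH or V library. The p53 list's sum in replicate 3 was also inside the V range (2319 CPM against 2155 to 2365). That of the interferon-stimulated list was below it (345 CPM against 351 to 397). S100a8, a neutrophil alarmin, read 10.9, 4.81 and 18.3 CPM in V and 40.7, 42.1 and 15.4 in DOXH. Macrophage markers summed to 352 to 429 CPM in V and 422 to 439 in DOXH. Of 13 tested, Cd163, F13a1 and Mrc1 were above V in every DOXH library and 0 were below, against 9.4% and 9.84% of all genes. The part of these cells in the results was not tested.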

How the data were processed

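Poly(A) RNA of mouse hearts was sequenced as single-end reads where RNA integrity exceeded 8, per the labels. The authors deposited expected counts, estimates of reads per gene, made with RSEM on GRCm38 (mm10) per the submitters' processing notes. DESeq2 is also named there without a role. Versions, annotation, strand setting and the filter already applied to the table (10393 genes) are not stated in what was used here.

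Groups came from the labels. Expected counts were rounded, scaled by TMM and filtered with filterByExpr, which removed 0 genes. edgeR 4.0.16 (R 4.3.3) fitted group means of all 12 libraries of 16 h by robust quasi-likelihood (8 residual degrees of freedom, 7 with a library left out), with Benjamini-Hochberg adjustment over all genes and a threshold of 0.05. CPM is TMM-scaled and not per gene length, so levels are not compared between genes. A prior count of 2 entered log2 CPM. The SE is the log2 fold change divided by the square root of F. A library counted as outside V when past all 3 V libraries and at least 2-fold from their mean. Depth was 17664060 to 19869050 counts in the H libraries and 9255651 to 11074450 in all others, so depth and H cannot be told apart. Replicates of a group differed beyond sampling noise. The script for tests across genes was checked on simulated data.

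The members and the 41 gene lists were chosen with earlier results of these data known. Adipocyte, lymphocyte and mesothelial lists had under 3 tested genes. The rule for names took the largest called and shared changes and called list members (0 genes qualified), the 8 widest deviations per direction of 1 library with another inside V, Cisd1 to Cisd3 and the 4 smallest p. Other genes named were chosen after their values were seen. Motifs were counted in genes without overlap, since 0 genes were called. Promoters came from RefSeq (GRCm38.p6), 8281 matched by symbol or synonym, and gene positions from GENCODE vM21. Alternatives were other scalings, filters, DESeq2 1.42.0, limma 3.58.1 voom with and without quality weights, glmTreat, a replicate block, 6 libraries alone and each library left out. Libraries of 72 h were not analysed here.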

Additional observations from a re-analysis of the deposited data

Results flagged for a closer look

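Of the genes followed here, 7 showed opposite directions of the same contrast in every library of the compared groups, each library's log2 CPM taken against the mean log2 CPM of its control group. The nearest library was past that mean by only 0.020 for Ciart and 0.096 for Per2 (both DOXH against DOX). It was past it by 0.115 for Hspa1b and 0.14 for Hspa1a (both DOXH against H). For Ciart and Hspa1a the nearest library was not past the mean of the CPM values themselves. For Hspa1b that library and the H mean both read 2.80 CPM. The edgeR interaction test, which asks whether the change with doxorubicin differs with hesperitin, called 0 genes (0%; 1228 at an unadjusted p under 0.05, 11.8%; DESeq2 called 53), so none of these differences passed it, and Dixon's rule was not applied, as each group had 3 libraries. The change with hesperitin was upward in the presence of doxorubicin and downward without it for Ciart (difference 0.949 on the log2 scale, edgeR interaction adjusted p = 0.377), Per2 (0.862, adjusted p = 0.334), Nckap5 (1.57, adjusted p = 0.233) and Sbk3 (2.03, adjusted p = 0.329). Nckap5 read 8.77, 8.25 and 9.74 CPM in V, 8.06, 5.87 and 6.16 in H, 1.55, 1.58 and 1.64 in DOX and 4.02, 2.46 and 5.19 in DOXH. DOXH replicate 3 was the highest DOXH library for Ciart, Nckap5 and Sbk3, and replicate 1 for Per2. The log2 fold change of DOXH over DOX was 0.92 for Ciart and 1.02 for Sbk3. Without DOXH replicate 3 it was 0.40 and 0.68. The change with doxorubicin was upward with hesperitin and downward without it for Hspa1b (0.687, edgeR interaction adjusted p = 0.623) and Hspa1a (1.30, adjusted p = 0.507). H replicate 1 was the highest H library in both HSP70 genes, at 4.36 and 6.40 CPM against 1.55 to 2.48 in the others. Cyp2e1 went down with doxorubicin beside hesperitin and up without it (-3.68, edgeR interaction adjusted p = 0.387), and DOXH replicate 1, at 0.10 CPM, was far below the other libraries of its group, at 3.21 and 1.04.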

How the results depend on the processing

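The count of 0 called genes in DOXH against V held in edgeR with RLE or upper quartile scaling, without a filter, with a mean of at least 5 CPM, without the robust option, against a fold of 1.5, in limma voom and with each V or DOX library left out. DESeq2 called 85 higher and 46 lower (72 and 46 of them without overlap), and 130 of its 131 were among the 1674 called without DOXH replicate 3. Quality weights gave 975 and 1143 (460 and 501 without overlap). The fit of 6 libraries called 1 gene, lower. Leaving out 1 library gave 0 to 765 higher and 0 to 909 lower, the same range for those without overlap. DOXH against DOX gave 390 in DESeq2, 1329 with weights and 0 to 1554 with 1 library left out, and the interaction gave 53, 236 and 0 to 254. Genes without overlap ranged from 1327 to 2559 higher and from 1320 to 2644 lower with 1 DOXH or V library left out, and every library was at least 1.5-fold past the V mean in 32 and 24. At a margin of 1.5-fold, replicates 1, 2 and 3 had 463, 978 and 106 genes higher and 461, 1299 and 127 lower, with 32 and 24 in all 3, and with a mean of at least 5 CPM 2 remained lower in all 3. Of the lists, 0 had a called member, but 19 in DESeq2, 32 with weights and 0 to 29 with 1 library left out. Of 59 genes followed, Alb turned to -0.82 in voom and -2.47 with weights. With 1 library left out the log2 fold changes that changed sign ran from -1.87 to 0.96 for Alb, -0.13 to 0.022 for Cisd2, -0.027 to 2.19 for Serpina3n, -0.31 to 1.83 for Hmox1, -0.70 to 0.33 for Itgb6 and -0.84 to 0.13 for B3galt2; the turn came without DOXH replicate 1 for Cisd2 and without DOXH replicate 2 for the others. The cause was not tested. DOXH and V share replicate numbers, but deviations of same-numbered libraries correlated at 0.08, 0.09 and -0.02, so the numbers were not taken as pairs, and the replicate block called 0 genes. The alternatives for DOXH against DOX, the interaction and genes without overlap were added after seeing the data. What depth limits was not tested. DOX against V, in the same fit and with as many libraries, had 1624 genes higher and 1728 lower.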
